A study of Mus musculus with 40 samples.

Results

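The fatty acid oxidation and ketone body genes are a list of 35 gene symbols, drawn up with earlier results of these data known, of 20078 gene symbols in the 4 expression tables of the study. They comprise 22 genes of the mitochondrial pathway, 4 peroxisomal genes, the microsomal omega-hydroxylases Cyp4a10 and Cyp4a14, and 7 other genes that handle acyl-CoA esters or ketone bodies or respond to the nuclear receptor PPARα. The tables had a row for 34 members in liver of each sex and for 33 in gonadal white fat (gWAT), a depot that lies next to the gonads. The groups were female gWAT, male gWAT, female liver and male liver of C57BL/6J offspring whose fathers were exposed to nicotine, each set against the same tissue and sex from offspring of control fathers. The table headers call the controls DMSO, so a DMSO vehicle was read as the control. Each group had 5 labelled samples, and 5 libraries per group were used except for the male gWAT controls. These had 4 library columns, whose numbers are not tied to single labelled samples. The dose, its route and length, and the ages of fathers and offspring do not appear in the sources used. The labels name no animals, litters or fathers, so each p-value reflects the spread among these libraries alone, and that spread may be technical.

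Fatty acids are activated to acyl-CoA esters and enter mitochondria through the carnitine shuttle. There a spiral of dehydrogenation, hydration, a further dehydrogenation and thiolysis shortens them, and flavoproteins carry the electrons to the respiratory chain. Peroxisomes shorten the longest chains, microsomal cytochromes P450 oxidize the far end of the chain, and liver turns acetyl-CoA into ketone bodies that other tissues burn. PPARα induces many of these genes in liver during fasting, and white fat normally stores more fatty acid than it oxidizes while brown fat burns it for heat.

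Values are normalized counts, which are 3′-tag reads per gene divided by a DESeq2 size factor per library, and each library held between 1543208 and 2239073 reads. A log2 change is the mean of log2(normalized count + 1) in the nicotine group minus that in controls, a scale that shrinks changes of weakly expressed genes, and a member was called where limma's adjusted p, over all genes tested in a table, was below 0.05. Members with a mean below 10 normalized counts over both groups together were not tested. A member could therefore reach this filter through the group where it was high. Folds are ratios of group means. The labelled tissues carried their own markers, with adipocyte markers of at least 28786 summed normalized counts in every gWAT library and hepatocyte markers of at least 64934 in every liver library. Some libraries also held transcripts of a neighbouring tissue, among them pancreas and skeletal muscle in male liver nicotine libraries 2 and 4, and epididymis in male gWAT nicotine library 1 and control column 1. Skeletal muscle markers in female gWAT summed to 73.3 to 1927 normalized counts in the nicotine libraries, and to 34876 in control library 2 and 81.5 to 1575 in the other controls. Smooth muscle markers there were highest in nicotine library 1, at 5249.9. In female liver skeletal muscle markers summed to 455 in nicotine library 5 and 10.7 to 52.1 in the other nicotine libraries, and to 286 in control library 4 and 10.6 to 14.4 in the other controls. Male liver nicotine libraries 1 and 5 stood apart, with hepatocyte marker sums of 67163 and 64934, against 79007 to 89577 in the other nicotine libraries and 75118 to 85663 in controls. Their mesothelial sums were 353 and 369, against 118 to 159 in the other nicotine libraries and 121 to 157 in controls. The elongase Elovl3 was at 0 and 1.64 normalized counts there, against 76.8 to 116 in the other nicotine libraries and 81.5 to 218 in controls. All samples carry the same batch number.

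**Figure D1:**
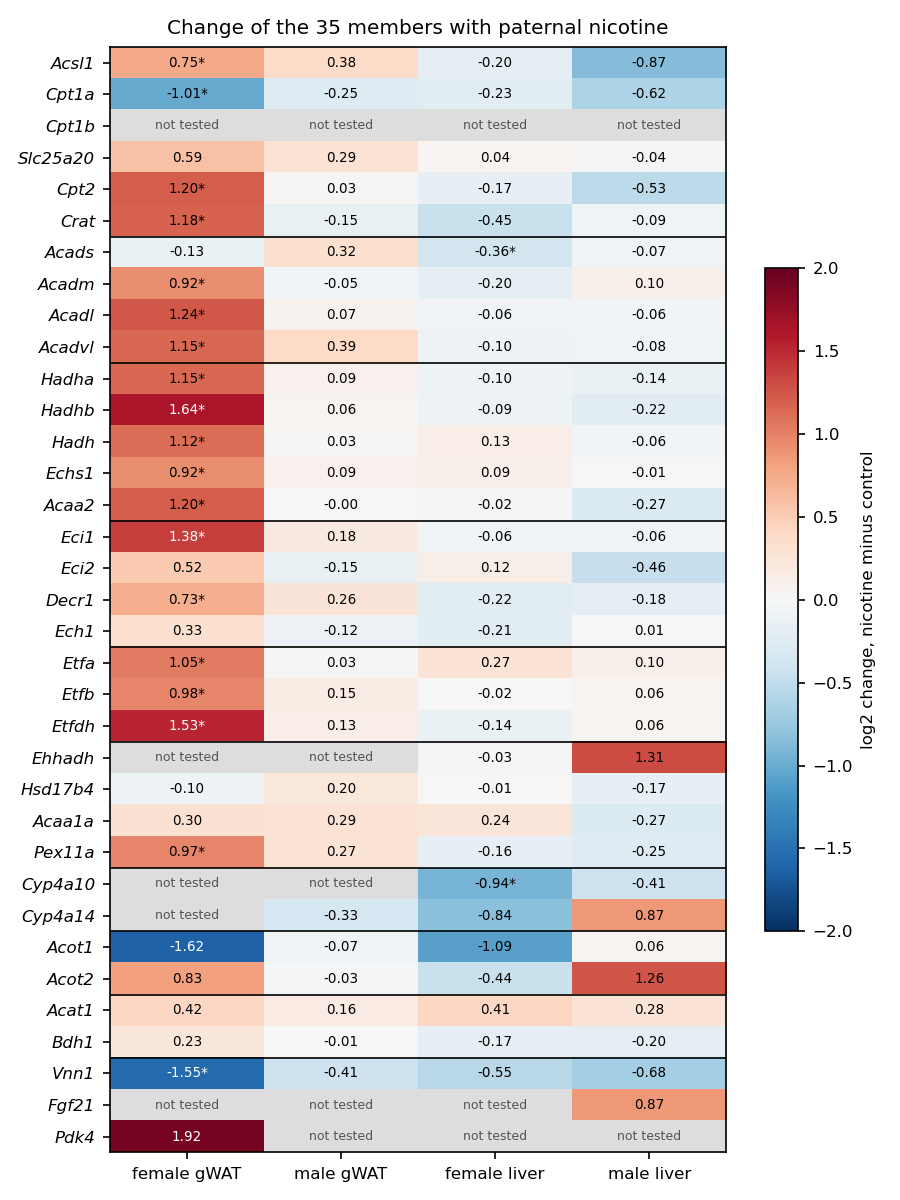
Log2 change (nicotine group less its controls) of each member in the 4 tables, coloured from -2 to 2, with lines between roles; asterisks mark limma adjusted p below 0.05, and grey cells had no row or a mean below 10. In female gWAT 17 members were called higher and 2 lower, in female liver 2 were called lower, and in male gWAT and male liver 0 were called.

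In female gWAT the mitochondrial oxidation genes were higher in daughters of nicotine-exposed fathers across nearly the whole spiral. Of 30 members tested, 17 rose, 2 fell and 11 did not pass, so 63.3% were called where 25.2% of all 10532 tested genes were. Higher calls made up 12.4% and lower calls 12.8% of all genes. Of the 21 mitochondrial members tested, 16 rose, Cpt1a fell and 4 did not pass. The median log2 change of the 30 members was 0.92, beside -0.03 over all genes, and 10 members lay above every control in every nicotine library, as did 8.48% of all genes. The other 5 members were not tested, because Cpt1b and Fgf21 had no row and Ehhadh, Cyp4a10 and Cyp4a14 were below the filter. Cpt1b had no row in any tissue. The last 500 bases of its transcript share 100% of their 50-base stretches with Gm44502, so a missing row need not mean no expression.

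The carnitine shuttle members went in both directions. Acsl1 had 2638, 3679, 3704, 4846 and 2945 normalized counts in the nicotine libraries, against 3128, 1709, 2398, 1504 and 1954 in the control libraries. Acsl1, which activates long-chain fatty acids, rose 1.67-fold with 3 of 5 nicotine libraries above all controls (log2 change 0.75, SE 0.23, limma adjusted p = 0.0271). Cpt1a had 72.2, 25.4, 40.0, 31.2 and 72.2 normalized counts in the nicotine libraries, against 72.5, 115, 69.9, 106 and 95.2 in the control libraries. Cpt1a, the carnitine palmitoyltransferase of the outer membrane that sets the rate of entry in liver, was the mitochondrial member that fell (log2 change -1.01, SE 0.29, limma adjusted p = 0.0205), with 3 nicotine libraries below all controls. Cpt2 had 164, 219.8, 275, 183 and 225 normalized counts in the nicotine libraries, against 128, 98.9, 115, 55.0 and 75.4 in the control libraries. Cpt2, which remakes the acyl-CoA ester inside mitochondria, rose 2.25-fold with no overlap between the groups (log2 change 1.20, SE 0.23, limma adjusted p = 0.00229). Crat, the carnitine acetyltransferase that buffers acetyl-CoA, averaged 178 ± 21.1 normalized counts in the nicotine group and 83.5 ± 38.0 in controls (SD, n = 5 each) and rose (log2 change 1.18, SE 0.25, limma adjusted p = 0.00467). Slc25a20, the carnitine-acylcarnitine carrier, averaged 156 ± 77.4 normalized counts in the nicotine group and 94.2 ± 22.5 in controls and did not pass (adjusted p = 0.17).

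**Figure D2:**
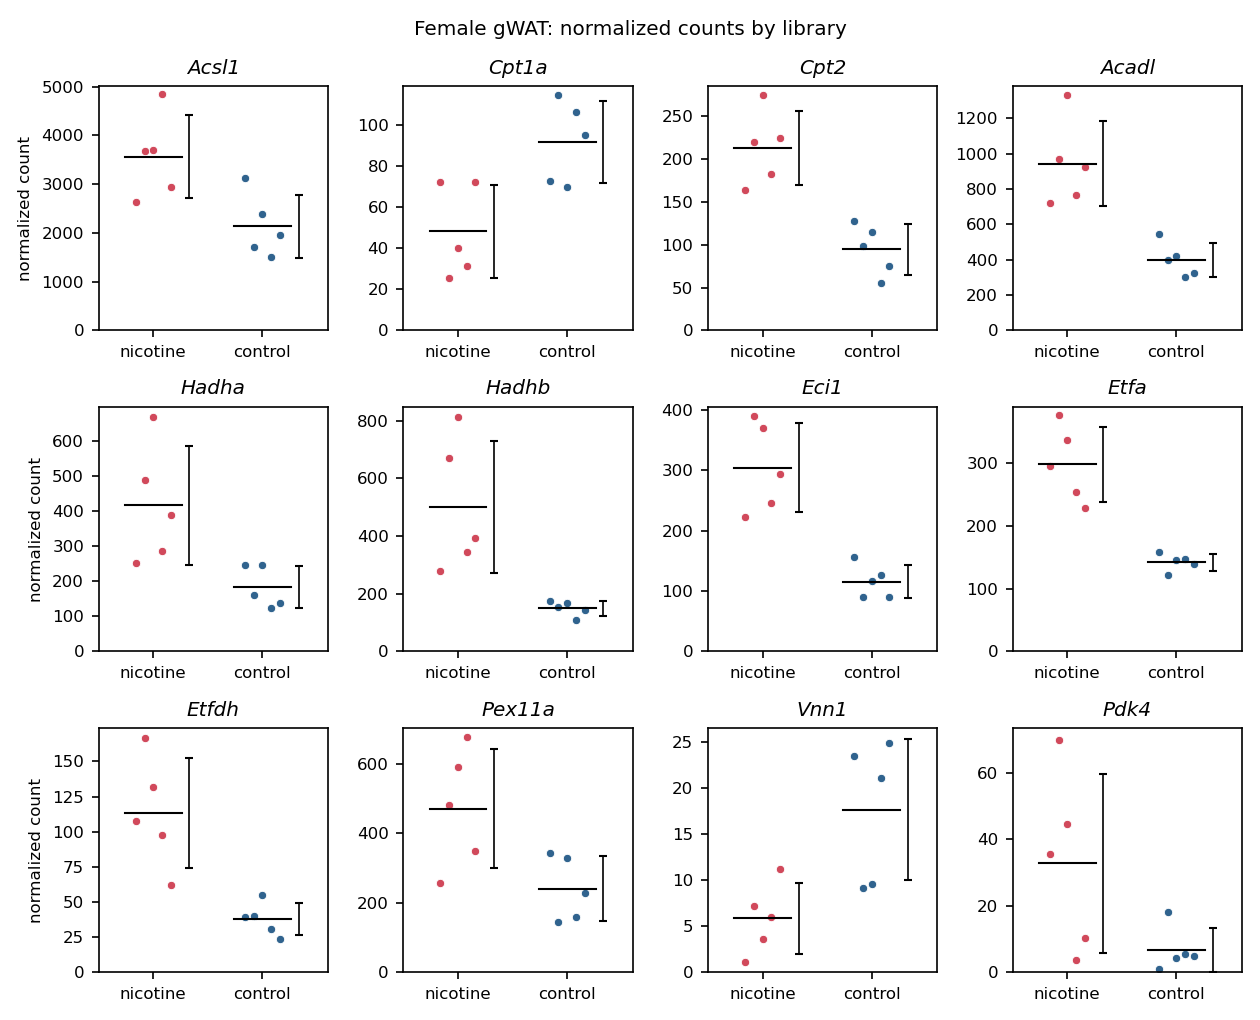
Normalized counts of 12 members in each female gWAT library (points; nicotine left, control right; 5 libraries each), with the group mean (line) and 1 SD (bar beside it), on linear axes from 0. Cpt2, Acadl, Hadha, Hadhb, Eci1, Etfa and Etfdh did not overlap between the groups, while Cpt1a and Vnn1 were lower and Pdk4 overlapped.

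The acyl-CoA dehydrogenases, which open each turn of the spiral, rose for the longer chains. Acadl had 723, 969.6, 1331, 766 and 925 normalized counts in the nicotine libraries, against 544, 396, 424, 303 and 326 in the control libraries. Acadl, for long chains, rose 2.37-fold and its lowest nicotine library exceeded its highest control (log2 change 1.24, SE 0.20, limma adjusted p = 0.000933). Acadm, for medium chains, averaged 919 ± 319.6 normalized counts in the nicotine group and 471 ± 108 in controls, and Acadvl, for very long chains, averaged 197 ± 81.0 normalized counts in the nicotine group and 87.0 ± 30.0 in controls. Both rose, with 4 of 5 nicotine libraries above all controls each (log2 changes 0.92 and 1.15, SE 0.23 and 0.31, limma adjusted p = 0.0109 and 0.0158). Acads, for short chains, spanned 195 to 416 normalized counts in the nicotine libraries and 179.7 to 404 in the control libraries and did not pass (log2 change -0.13, SE 0.25, limma adjusted p = 0.728).

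All 5 members of the hydratase, 3-hydroxyacyl-CoA dehydrogenase and thiolase steps rose. Hadhb had 279, 673, 813, 346 and 395 normalized counts in the nicotine libraries, against 175, 153, 169, 109 and 142 in the control libraries. Hadhb, the thiolase subunit of the mitochondrial trifunctional protein, had the highest fold of the called members, 3.35-fold (log2 change 1.64, SE 0.27, limma adjusted p = 0.00091), and its lowest nicotine library was above its highest control. Hadha had 251, 488, 669, 286 and 388 normalized counts in the nicotine libraries, against 246, 159, 247, 124 and 137 in the control libraries. Hadha, the subunit with the hydratase and dehydrogenase activities, rose 2.28-fold without overlap, although nicotine library 1 was close to control libraries 1 and 3 (log2 change 1.15, SE 0.28, limma adjusted p = 0.00836). Hadh had 668, 1043, 1307, 892 and 850.4 normalized counts in the nicotine libraries, against 514, 361, 460.3, 429.6 and 380.1 in the control libraries. Hadh, the dehydrogenase for shorter chains, rose 2.22-fold without overlap (log2 change 1.12, SE 0.19, limma adjusted p = 0.000969). Echs1, the hydratase for shorter chains, spanned 418 to 651 normalized counts in the nicotine libraries and 217 to 356 in the control libraries and rose 1.90-fold (log2 change 0.92, SE 0.18, limma adjusted p = 0.00312). Acaa2, the thiolase for shorter chains, spanned 207 to 767 normalized counts in the nicotine libraries and 151 to 253 in the control libraries and rose 2.49-fold with 1 nicotine library among the controls (log2 change 1.20, SE 0.29, limma adjusted p = 0.00936).

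Hadhb and Hadha lie head to head on chromosome 5, so in RefSeq the same stretch precedes both genes and is shown for that reason. In RefSeq (GRCm38.p6) their starts are 273 bases apart, Hadhb on the plus strand and Hadha on the minus strand, and 228 bases of their promoter windows coincide. In the GENCODE annotation Hadha reaches position 30155162 and Hadhb begins at 30155248, so part of the stretch lies inside Hadha there. The windows of Etfa, at chr9:55512244-55512493 on the minus strand, and Echs1, at chr7:140116422-140116671 on the minus strand, are shown because each rose and holds a match to the direct repeat that PPARα and its partner RXR bind. Each sequence is the 250 bases before the RefSeq start, written 5′ to 3′ on the gene's own strand, and Hadhb's is at chr5:30155003-30155252. Capitals mark the match.
Hadhb: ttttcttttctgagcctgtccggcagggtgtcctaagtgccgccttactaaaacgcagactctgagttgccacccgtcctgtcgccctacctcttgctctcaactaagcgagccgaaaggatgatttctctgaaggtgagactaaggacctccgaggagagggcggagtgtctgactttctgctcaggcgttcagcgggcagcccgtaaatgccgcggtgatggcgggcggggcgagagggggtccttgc
Etfa: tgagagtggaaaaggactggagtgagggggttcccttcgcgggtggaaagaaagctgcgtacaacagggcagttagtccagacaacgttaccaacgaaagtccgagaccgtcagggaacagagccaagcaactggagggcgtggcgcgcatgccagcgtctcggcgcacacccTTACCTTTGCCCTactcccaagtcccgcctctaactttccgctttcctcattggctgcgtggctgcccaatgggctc
Echs1: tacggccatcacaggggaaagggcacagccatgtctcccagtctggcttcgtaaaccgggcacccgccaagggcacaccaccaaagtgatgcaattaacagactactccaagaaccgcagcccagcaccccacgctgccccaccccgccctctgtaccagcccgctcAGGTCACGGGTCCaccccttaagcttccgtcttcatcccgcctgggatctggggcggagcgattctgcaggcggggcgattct

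The motif searched was AGGTCA repeated directly with any 1 base between the copies, on both strands with up to 2 mismatches in the window from 250 bases before to 50 after the start. It was found in 3 of the 28 windows of the 26 members that RefSeq windows matched, those of Echs1, Etfa and Slc25a20, and in 3.86% of all 32851 windows. Etfa's match was on the reverse strand 77 bases before the start, and Echs1's was on the forward strand 83 bases before it, with 2 mismatches each. The longer monomer site TNAAGGTCA of the estrogen-related receptors, searched without mismatches on both strands, shares the AGGTCA core and was in 0 of the 28 windows and in 1.28% of all windows. A match is a run of letters and not a site of binding.

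The auxiliary enzymes for unsaturated chains rose in part. Eci1 had 222, 390.0, 370.0, 245 and 294 normalized counts in the nicotine libraries, against 156, 90.7, 116, 126 and 89.4 in the control libraries. Eci1, an enoyl-CoA isomerase, had the smallest adjusted p of the members and rose 2.63-fold without overlap (log2 change 1.38, SE 0.21, limma adjusted p = 0.000535). Decr1, the dienoyl-CoA reductase, spanned 344 to 807 normalized counts in the nicotine libraries and 258 to 467 in the control libraries and rose 1.69-fold (log2 change 0.73, SE 0.23, limma adjusted p = 0.0294). The isomerases Eci2 and Ech1 did not pass (log2 changes 0.52 and 0.33, adjusted p = 0.0526 and 0.258).

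All 3 members of the electron transfer flavoprotein path, which takes electrons from the dehydrogenases to ubiquinone, rose without overlap. Etfa had 296, 377, 336, 255 and 229 normalized counts in the nicotine libraries, against 159, 122, 145, 147 and 139 in the control libraries. The alpha subunit Etfa rose 2.10-fold, and its controls lay within a narrow band (log2 change 1.05, SE 0.16, limma adjusted p = 0.000734). Etfdh had 108, 167, 132, 97.4 and 61.9 normalized counts in the nicotine libraries, against 39.2, 40.3, 55.0, 31.1 and 24.0 in the control libraries. Etfdh, the oxidoreductase that hands the electrons on, rose 2.98-fold (log2 change 1.53, SE 0.27, limma adjusted p = 0.00144). The beta subunit Etfb averaged 766 ± 211 normalized counts in the nicotine group and 383 ± 68.9 in controls (log2 change 0.98, SE 0.19, limma adjusted p = 0.00271). The last 500 bases of the Etfb transcript share 48.8% of their 50-base stretches with the predicted gene Gm45233, so reads of the pair may be split.

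Of 3 peroxisomal members tested 1 rose. Pex11a had 258, 481, 591, 677 and 351 normalized counts in the nicotine libraries, against 344, 145, 330.2, 158 and 229 in the control libraries. Pex11a, which divides peroxisomes, rose 1.95-fold with 4 of 5 nicotine libraries above all controls (log2 change 0.97, SE 0.30, limma adjusted p = 0.028). Hsd17b4 and Acaa1a, enzymes of the peroxisomal spiral, did not pass (log2 changes -0.10 and 0.30), and Acaa1a shares 42.1% of its transcript end with Acaa1b. Ehhadh, the peroxisomal bifunctional enzyme, was at 0 to 2.73 normalized counts in the nicotine libraries and 0 to 4.90 in controls. The omega-hydroxylases Cyp4a10 and Cyp4a14 stayed at or below 9.66 normalized counts in every female gWAT library.

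Of the 6 remaining members tested, Vnn1 fell and 5 did not pass. Vnn1 had 1.15, 7.25, 3.64, 6.01 and 11.3 normalized counts in the nicotine libraries, against 23.5, 9.16, 9.61, 21.1 and 24.8 in the control libraries. Vnn1, a pantetheinase and PPARα target in liver, was below all controls in 4 of 5 nicotine libraries at these low levels (log2 change -1.55, SE 0.52, limma adjusted p = 0.0422). It reached the filter of 10 normalized counts through its controls, since the nicotine libraries other than library 5 lay below 10. Pdk4 had 35.5, 70.0, 44.6, 3.61 and 10.3 normalized counts in the nicotine libraries, against 0.980, 18.3, 4.37, 5.50 and 4.97 in the control libraries. Pdk4, the kinase that turns pyruvate dehydrogenase off, was above all controls in nicotine libraries 1, 2 and 3 and within them in libraries 4 and 5 (log2 change 1.92, SE 0.73, limma adjusted p = 0.0683). On the recovered reads edgeR and DESeq2 called it (adjusted p = 0.0404 and 0.00748). Its mean reached the filter only through nicotine libraries 1, 2 and 3, so these calls rest on the libraries where it was high. The thioesterases Acot2 and Acot1, neighbours on chromosome 12 that free fatty acids in mitochondria and cytosol, had opposite signs and did not pass (log2 changes 0.83 and -1.62, limma adjusted p = 0.0511 and 0.0828). Of the ketone members, Acat1, the mitochondrial acetoacetyl-CoA thiolase, averaged 239.8 ± 70.7 normalized counts in the nicotine group and 174 ± 25.3 in controls, and Bdh1, the hydroxybutyrate dehydrogenase, spanned 6.01 to 73.4 normalized counts in the nicotine libraries and 8.73 to 92.5 in the control libraries. Neither passed (adjusted p = 0.133 and 0.839).

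Other genes of the same pathways, from lists that are not members, were counted in female gWAT. Of all tested genes there 12.4% were called higher and 12.8% lower. Among 18 regulators of oxidation tested 7 rose and 11 did not pass. Ppara had 143, 281, 327, 106 and 161 normalized counts in the nicotine libraries, against 46.1, 60.5, 52.4, 10.1 and 14.1 in the control libraries. Ppara, which encodes PPARα, rose 5.57-fold without overlap (log2 change 2.63, SE 0.47, adjusted p = 0.00149), and the coactivators Ppargc1b and Ppargc1a rose 4.83-fold and 3.17-fold (limma adjusted p = 0.000236 and 0.00301). Among 8 other ketone body genes tested 4 rose, 1 fell and 3 did not pass. Oxct1, which activates acetoacetate for burning, averaged 1157 ± 129.8 normalized counts in the nicotine group and 656 ± 113 in controls (log2 change 0.83, SE 0.16, adjusted p = 0.00237). The monocarboxylate carrier Slc16a6 fell to 18.7 ± 4.72 normalized counts in the nicotine group, against 45.4 ± 9.48 in controls (log2 change -1.24, SE 0.23, adjusted p = 0.00196). Of 18 other mitochondrial oxidation genes 4 rose, led by Mmut, the methylmalonyl-CoA mutase (2.17-fold, adjusted p = 0.00387), and of 21 other peroxisomal oxidation genes 5 rose, led by Phyh, the phytanoyl-CoA hydroxylase (1.97-fold, adjusted p = 0.00651), with 0 lower in either list.

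Other measures of these libraries moved with the group. Brown adipocyte markers summed to 605 to 5006 in the nicotine libraries and 530.0 to 1278 in the control libraries, and 4 of the 10 tested rose. Ppargc1a, named above as a risen regulator, is among these 4 and is part of the sum. Ucp1, the uncoupling protein of brown fat, had 578, 593, 1510, 33.7 and 553 normalized counts in the nicotine libraries, against 185, 147, 191, 61.4 and 0.828 in the control libraries, and did not pass (limma adjusted p = 0.0953). Nicotine library 4 had a marker sum of 605, within the controls. It was above all controls for 14 of the 17 members that rose, as library 1 was, against 15 to 17 in the other nicotine libraries. Those members were called with library 4 included, so its place above the controls is not independent of the calls. With the summed markers as a covariate, chosen after seeing the data, 11 members rose and 0 fell, where 19.6% of all genes were called. Acadm, Acadvl, Acsl1, Cpt1a, Decr1, Hadha, Pex11a and Vnn1 were then no longer called, and the log2 change of Hadha was 0.66 (limma adjusted p = 0.0807). Macrophage markers summed to 285 to 578 in the nicotine libraries and 989 to 1834 in the control libraries, and all 9 tested fell. Of 8 fibroblast markers tested 3 fell, as did 3 of 8 mesothelial markers, and 2 of 10 adipocyte markers rose. The 10 adipocyte markers, of which 0 were called lower, summed to 37156 to 64461 in the nicotine libraries and 41784 to 119089 in controls (medians 54057.5 and 63474.1). Among them the lipid droplet protein Plin1 was at 482 to 1053 normalized counts in the nicotine libraries and 178 to 458 in controls, with no overlap. Adipoq overlapped, at 3109 to 6681 in the nicotine libraries and 3808 to 8959 in controls. The mitochondrial rRNAs took 19.3% to 32.5% of reads in the nicotine libraries and 8.23% to 13.0% in controls. The part of the macrophage, fibroblast, mesothelial and adipocyte shifts in the members' changes was not tested, and in bulk tissue more cells of a type and more RNA per cell cannot be told apart.

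The scaling of the libraries bore on the count. With total reads in place of size factors, chosen after seeing the data, the median log2 change of all genes was -0.37 and 3175 genes (29.8%) were called, 483 of them higher (4.53%), where 1303 of 2656 were higher with size factors. Of the members, 12 were then higher and 3 lower (Cpt1a, Vnn1 and Acot1). With total reads less those of the mitochondrial rRNAs, also chosen after seeing the data, the median was -0.083 and 2585 genes (24.3%) were called, 1105 of them higher (10.4%). The same 17 members were then higher and the same 2 lower. Acsl1, Pex11a, Decr1, Cpt1a and Vnn1 were called in 5, 4, 6, 8 and 3 of the 10 fits that left a library out. Cpt1a was not called without nicotine library 2 or 4, Decr1 without nicotine library 2 or 3 or control library 4 or 5, and Acsl1 without nicotine library 2 or 4 or control library 2, 4 or 5. Pex11a was called without nicotine library 1 or 5 or control library 1 or 3, and Vnn1 without nicotine library 5 or control library 2 or 3. The highest limma adjusted p of these fits was 0.107, for Vnn1. The other 14 members that rose were called in all 10 fits. The authors' deposited table lists 21 members below an adjusted p of 0.05, and 2903 of the 15321 genes with an adjusted p (18.9%).

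In male gWAT 0 of 30 members were called, nor was any of all 11210 genes (0%). An unadjusted p below 0.05 was reached by 182 genes, 1.62% of those tested, and by 0 members, and edgeR and DESeq2 called 0 genes as well. The member of smallest p was Acadvl, with 61.9 to 90.7 normalized counts in the nicotine libraries and 45.2 to 70.0 in the control libraries (log2 change 0.39, SE 0.19, limma adjusted p = 0.9996). Acsl1 spanned 1488 to 2571 normalized counts in the nicotine libraries and 970.1 to 1692 in the control libraries, and Cpt1a averaged 110.3 ± 26.1 normalized counts in the nicotine group and 129 ± 17.7 in controls (SD, n = 5 and 4). Acaa1a and Slc25a20 were the next by p, with log2 changes of 0.29 each and an SE of 0.24 and 0.27.

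The members that rose most in female gWAT showed overlapping groups in male gWAT. Hadhb had 103, 99.8, 90.0, 113 and 123 normalized counts in the nicotine libraries, against 69.7, 96.5, 103 and 148 in the control libraries. The nicotine libraries lay within the range of the 4 controls (log2 change 0.06, SE 0.22, limma adjusted p = 0.9996). Hadha averaged 155 ± 47.2 normalized counts in the nicotine group and 142 ± 23.2 in controls, and Acadm averaged 355 ± 56.7 normalized counts in the nicotine group and 367 ± 52.8 in controls (limma adjusted p = 0.9996 each). Cyp4a14 had 88.2 normalized counts in nicotine library 1 and 0 to 3.87 in the other 4, against 3.00 to 10.9 in controls. It reached the filter through that library alone. That library also held the most hepatocyte markers of the male gWAT libraries, summing to 3922 against at most 787 in controls, and their part was not tested. Bdh1 spanned 4.53 to 74.2 normalized counts in the nicotine libraries and 8.00 to 47.8 in the control libraries and did not pass. Vnn1 spanned 4.00 to 19.9 normalized counts in the nicotine libraries and 7.00 to 19.1 in the control libraries and did not pass. Pdk4 was at 0 to 6.59 normalized counts in the nicotine libraries and 0 to 1.00 in controls, and Ehhadh at 0.941 to 4.00 in the nicotine libraries and 0.868 to 7.00 in controls. Both and Cyp4a10 were below the filter, and Cpt1b and Fgf21 had no row. Ucp1 was at 0 to 12.9 normalized counts in the nicotine libraries and 0 to 3.00 in controls.

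Whether daughters and sons differed in their gWAT response was tested by the interaction of sex and exposure. Of 29 members tested 4 passed, all with a larger change in daughters, where 8.87% of all 10042 genes passed. For Hadhb the log2 change was 1.64 in daughters and 0.06 in sons (female change minus male change 1.57 on the log2 scale, SE 0.37, limma adjusted p = 0.0129). For Hadh it was 1.12 in daughters and 0.03 in sons (difference 1.10, SE 0.27, limma adjusted p = 0.0184). Eci1 and Etfa differed by 1.21 and 1.02 (SE 0.31 and 0.28, limma adjusted p = 0.0203 and 0.0319). Without male control column 4 the differences of Eci1 and Etfa did not pass and 2 members were called, while without control column 1 there were 10. Without female control library 2, female nicotine library 2 or male control column 3 in turn, Etfa alone was lost and 3 members were called.

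**Figure D3:**
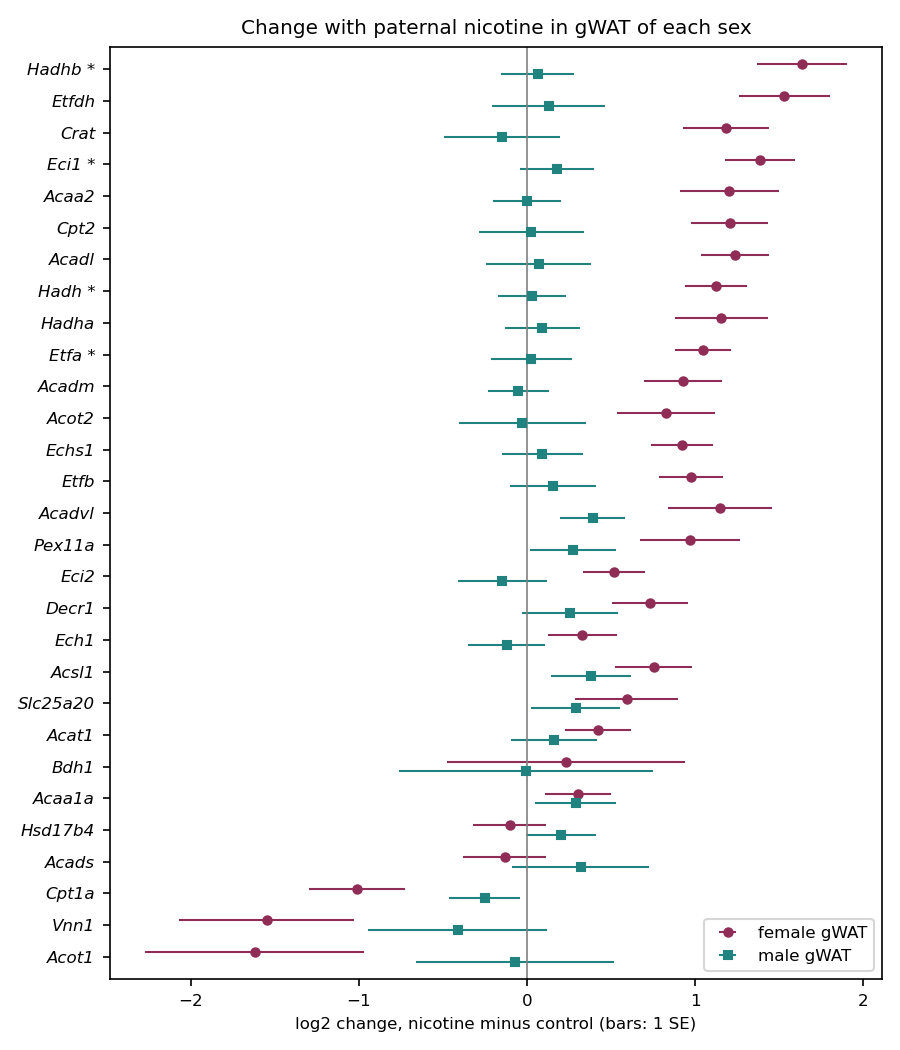
Log2 change (nicotine minus control) of the 29 members tested in gWAT of both sexes, with bars of 1 SE: circles are female gWAT and squares male gWAT, ordered by the difference, and asterisks mark an interaction with limma adjusted p below 0.05. Hadhb, Hadh, Eci1 and Etfa passed, with changes of 1.05 to 1.64 in daughters and 0.03 to 0.18 in sons.

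In female liver the members that passed were lower, 1 in mitochondria and 1 in microsomes. Of 32 members tested 0 rose, 2 fell and 30 did not pass, so 6.25% were called where 3.28% of all 9173 genes were and 1.67% were called lower. The members that fell were Acads of the mitochondrial spiral and the microsomal Cyp4a10. The median log2 change of the tested members was -0.12, beside -0.0045 over all genes, with 7 higher and 25 lower in mean log2 value. Cpt1b had no row, and Fgf21 and Pdk4 were below the filter. Endothelial markers summed to 538 to 654 in the nicotine libraries and 714 to 783 in the control libraries, without overlap. Of the 6 endothelial markers tested 0 were called, and 2 of 10 hepatocyte markers rose. The mitochondrial rRNAs took a median of 17.1% of reads in the nicotine libraries and 19.0% in controls. The part of these shifts in the members' changes was not tested.

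Acads had 296, 318, 315, 296 and 347 normalized counts in the nicotine libraries, against 418, 396, 408, 397 and 399 in the control libraries. Acads, which was the dehydrogenase that did not pass in female gWAT, fell and was 0.779-fold of the control mean, and its groups did not overlap, as for 2.49% of all genes with the lower values in nicotine (log2 change -0.36, SE 0.08, limma adjusted p = 0.014). Cyp4a10 had 1817, 785, 713, 989 and 1051 normalized counts in the nicotine libraries, against 2226, 1854, 1032, 2629.6 and 2425 in the control libraries. Cyp4a10, which adds a hydroxyl group to the far end of fatty acids, fell and was 0.527-fold of the control mean, with nicotine library 1 high among the nicotine libraries and control library 3 low among the controls (log2 change -0.94, SE 0.23, limma adjusted p = 0.0262). DESeq2, which called 3.67% of all genes, did not call it (adjusted p = 0.0898), and neither did the fits without nicotine library 2, 3 or 4 or control library 1, 4 or 5, with limma adjusted p up to 0.0855. Cyp4a14 had 2178, 757, 851, 922 and 974 normalized counts in the nicotine libraries, against 1813, 2253, 1032, 2493 and 2173 in the control libraries. Cyp4a14, its neighbour on chromosome 4, had the same high and low libraries and did not pass (log2 change -0.84, SE 0.24, limma adjusted p = 0.0595). Without control library 4 and nicotine library 5, which held muscle transcripts, Acads passed and Cyp4a10 did not (limma adjusted p = 0.0264 and 0.113).

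Acot1, a cytosolic thioesterase, and Vnn1, which releases pantothenic acid, did not pass. Acot1 averaged 54.7 ± 29.7 normalized counts in the nicotine group and 114 ± 46.6 in controls (SD, n = 5 each; log2 change -1.09, SE 0.31, limma adjusted p = 0.0616). Vnn1 averaged 101 ± 32.9 normalized counts in the nicotine group and 143 ± 27.7 in controls (log2 change -0.55, SE 0.19, adjusted p = 0.121). Fgf21, the fasting hormone, was at 0.951 to 4.13 normalized counts in the nicotine libraries and 4.55 to 15.4 in controls, levels too low to be tested. All 5 nicotine libraries lay below all 5 controls. The values 4.13 and 4.55 differ by less than 1 read, worth 1.03 and 0.910 normalized counts in those libraries. Of the tested genes 2.49% were separated in this direction, and genes below the filter were not counted. Pdk4 was at 0 to 2.18 normalized counts in the nicotine libraries and 0.910 to 8.68 in controls.

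The remaining steps in female liver overlapped between the groups. Cpt1a spanned 535 to 907 normalized counts in the nicotine libraries and 778 to 912 in the control libraries (adjusted p = 0.287), and Acadm 708 to 900.3 normalized counts in the nicotine libraries and 764 to 1000.5 in the control libraries (adjusted p = 0.253). Hadha averaged 361 ± 61.3 normalized counts in the nicotine group and 388 ± 62.5 in controls. Ehhadh averaged 27.4 ± 9.11 normalized counts in the nicotine group and 27.4 ± 6.99 in controls. Bdh1 averaged 458 ± 79.2 normalized counts in the nicotine group and 512 ± 62.3 in controls. Etfa had 477, 338, 422, 423 and 439 normalized counts in the nicotine libraries, against 338, 374, 372, 342 and 307 in the control libraries. Etfa was above all controls in 4 nicotine libraries and did not pass (log2 change 0.27, SE 0.10, limma adjusted p = 0.137). The log2 changes of the tested members ran from -1.09 for Acot1 to 0.41 for Acat1. Of the other pathway genes, Bbox1, which completes carnitine synthesis, rose 1.39-fold (log2 change 0.47, SE 0.10, adjusted p = 0.0156) as 1 of 18 mitochondrial genes. Lpin1, a phosphatidate phosphatase and coactivator of PPARα, rose 2.57-fold (log2 change 1.45, SE 0.23, adjusted p = 0.000912) as 1 of 19 regulators. Among 26 other peroxisomal genes Pipox, which oxidizes pipecolic acid, rose and Hacl1, of alpha-oxidation, fell (log2 changes 0.37 and -0.47, adjusted p = 0.0374 and 0.0435). The carrier of ketone bodies Slc16a1 fell (log2 change -0.67, SE 0.17, adjusted p = 0.0286) as 1 of 8 other ketone body genes. Of the 9 other omega-oxidation genes tested 0 passed. Over all tested genes of female liver 3.28% were called.

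**Figure D4:**
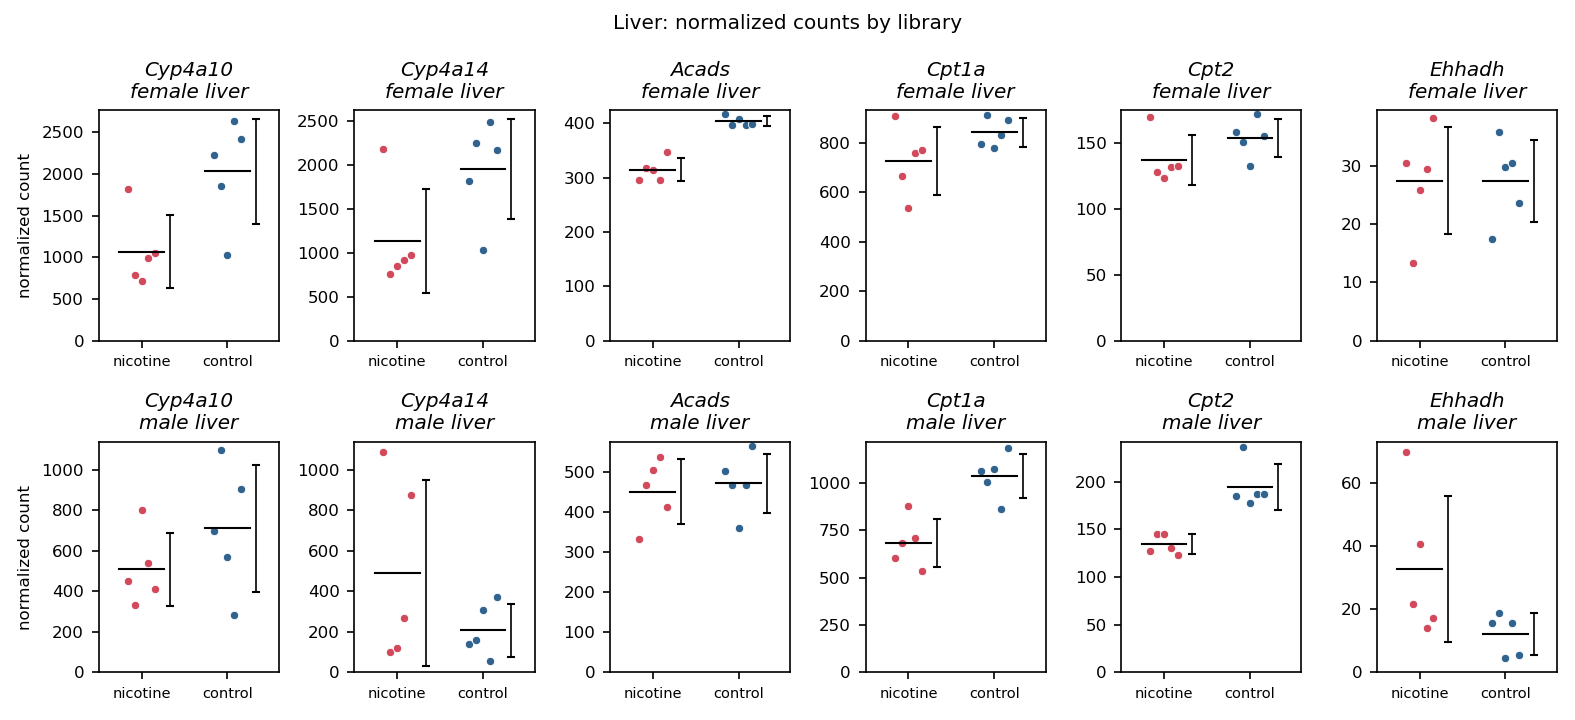
Normalized counts of 6 members in each liver library (points; nicotine left, control right; 5 libraries each), female liver above and male liver below, with the group mean (line) and 1 SD (bar beside it), on linear axes from 0. Acads in female liver and Cpt2 in male liver did not overlap between the groups, and Cyp4a14 in male liver was high in nicotine libraries 1 and 5.

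In male liver 0 of 33 members passed, beside 5 of all 9093 genes (0.055%). An unadjusted p below 0.05 was reached by 5 members and by 14.5% of all genes. The members of smallest p were the carnitine palmitoyltransferases. Cpt2 had 127, 145, 146, 131 and 123 normalized counts in the nicotine libraries, against 185, 236, 177, 187 and 187 in the control libraries. The highest nicotine library was below the lowest control, as for 1.85% of all genes (log2 change -0.53, SE 0.12, limma adjusted p = 0.122). Cpt1a had 603, 685, 878, 708 and 538 normalized counts in the nicotine libraries, against 1064, 1007, 1072, 864 and 1185 in the control libraries. Here 4 nicotine libraries were below all controls, and nicotine library 3 was just above the lowest control (log2 change -0.62, SE 0.15, limma adjusted p = 0.122). DESeq2 called both (adjusted p = 0.0138 and 0.011) where it called 2.05% of all genes, and edgeR, which called 0.033%, did not (adjusted p = 0.12 and 0.132). Without nicotine libraries 1 and 5 their log2 changes were -0.46 and -0.46. The authors' deposited table lists 2 members below an adjusted p of 0.05, and 154 of the 10531 genes with an adjusted p (1.46%).

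Several members in male liver had values in nicotine libraries 1 and 5 that lay apart from the other libraries. Acsl1 had 751, 3280.3, 3283, 2433 and 781 normalized counts in the nicotine libraries, against 3295, 4158, 2902, 2747 and 2879.8 in the control libraries. Libraries 1 and 5 were below every other library, and without them the log2 change of Acsl1 was -0.09, against -0.87 with all. Cyp4a14 had 1086, 102, 119, 268 and 875 normalized counts in the nicotine libraries, against 142, 160.3, 310.2, 55.8 and 373 in the control libraries. Libraries 1 and 5 were here above every other library, and without them the log2 change was -0.21, against 0.87 with all. Acot2 had 71.4, 2.07, 6.28, 14.1 and 54.0 normalized counts in the nicotine libraries, against 1.98, 6.33, 12.4, 4.89 and 8.96 in the control libraries. Fgf21 had 52.2, 0, 5.24, 7.68 and 23.7 normalized counts in the nicotine libraries, against 2.97, 5.27, 6.20, 1.96 and 5.60 in the control libraries. Both were highest in nicotine libraries 1 and 5, and neither passed (adjusted p = 0.459 and 0.663). They reached the filter through those libraries. Vnn1 had 24.3, 48.7, 75.4, 65.3 and 30.3 normalized counts in the nicotine libraries, against 82.1, 68.5, 85.1, 52.8 and 77.3 in the control libraries. Vnn1 was lowest in the same libraries (log2 change -0.68, SE 0.28, limma adjusted p = 0.297).

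The peroxisomal Ehhadh had the largest log2 change among the tested members of male liver. Ehhadh had 69.9, 21.8, 40.8, 14.1 and 17.2 normalized counts in the nicotine libraries, against 15.8, 19.0, 4.43, 15.7 and 5.60 in the control libraries. It was above all controls in nicotine libraries 1, 2 and 3 and did not pass (log2 change 1.31, SE 0.47, limma adjusted p = 0.25). Without nicotine libraries 1 and 5 its log2 change was 1.08 (limma adjusted p = 0.377). Acadm, Hadha, Cyp4a10 and Bdh1 overlapped between the groups (log2 changes 0.10, -0.14, -0.41 and -0.20). Pdk4 was at 0 to 15.4 normalized counts in the nicotine libraries and 0 to 1.96 in controls, below the filter, and Cpt1b had no row. None of the other pathway genes of the 8 lists passed in male liver or in male gWAT.

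The interaction of sex and exposure in liver passed for 0 of 32 members, where 1.56% of all 8699 genes passed. The members of smallest p were Acot1, Ehhadh and Cpt2. For Acot1 the log2 change was -1.09 in daughters and 0.06 in sons (female change minus male change -1.15 on the log2 scale, SE 0.44, limma adjusted p = 0.199). For Ehhadh it was -0.03 in daughters and 1.31 in sons, and for Cpt2 it was -0.17 in daughters and -0.53 in sons (limma adjusted p = 0.237 and 0.254).

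Levels in CPM, the recovered reads scaled to equal library totals, are given without a test because the tables were normalized separately. The totals include mitochondrial rRNA, which in female gWAT took 19.3% to 32.5% of reads in the nicotine libraries and 8.23% to 13.0% in controls. CPM of other genes there are thus lowered more in the nicotine group, unlike the normalized counts above. Cpt1a averaged 375 ± 71.5 CPM in female liver of the nicotine group and 426 ± 31.2 in its controls, and 23.9 ± 13.2 in female gWAT of the nicotine group and 55.9 ± 14.0 in its controls. Cyp4a14 averaged 587 ± 307 in female liver of the nicotine group and 988 ± 294 in its controls, and 309.7 ± 317 in male liver of the nicotine group and 110.3 ± 69.3 in its controls. In gWAT controls it averaged 1.74 ± 1.06 in daughters and 3.54 ± 1.85 in sons. Hadhb averaged 239 ± 109 CPM in female gWAT of the nicotine group and 90.4 ± 13.7 in its controls, and 84.5 ± 16.2 in female liver of the nicotine group and 87.4 ± 6.59 in its controls. Ehhadh averaged 13.9 ± 3.57 in female liver controls and 1.30 ± 1.11 in female gWAT controls. Fgf21 had no row in gWAT.

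Members were also compared across libraries by the deviation of their log2 values from the group means, over 16 pairs and tables with permutation p-values (two-sided, shuffled within groups) adjusted over all 16. In female gWAT Hadha and Hadhb gave Pearson r = 0.91 and Spearman rho = 0.92 (n = 10, permutation p = 0.00016 and 0.00092, adjusted p = 0.00256 and 0.0147). Without the 2 libraries farthest from the Hadha median r was 0.88. In the same tissue Acadm and Acadl gave r = 0.88 and rho = 0.85 (permutation p = 0.00138 and 0.0043, adjusted p = 0.011 and 0.0344), and r = 0.90 without such libraries. In female liver Cyp4a10 and Cyp4a14 gave r = 0.93 and rho = 0.87 (permutation p = 0.00478 and 0.00676, adjusted p = 0.0255 and 0.0361), and r = 0.80 without such libraries. Cyp4a14 and Cpt1a there gave r = 0.69 and rho = 0.76 (permutation p = 0.0565 and 0.0115), of which rho passed and r did not (adjusted p = 0.0458 for rho and 0.129 for r), and r = 0.50 without such libraries. Cyp4a10 shares 5.99% of the 50-base stretches of its transcript end with Cyp4a31, and Cyp4a14 shares 0% with any gene. Depth and the brown adipocyte markers above also varied among the libraries of a group, and their part in these correlations was not tested. In male liver without nicotine libraries 1 and 5 and in male gWAT, 0 of 9 pairs passed for either measure, with Hadha and Hadhb at r = 0.75 and 0.19 (permutation p = 0.113 and 0.548, n = 8 and 9).

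**Figure D5:**
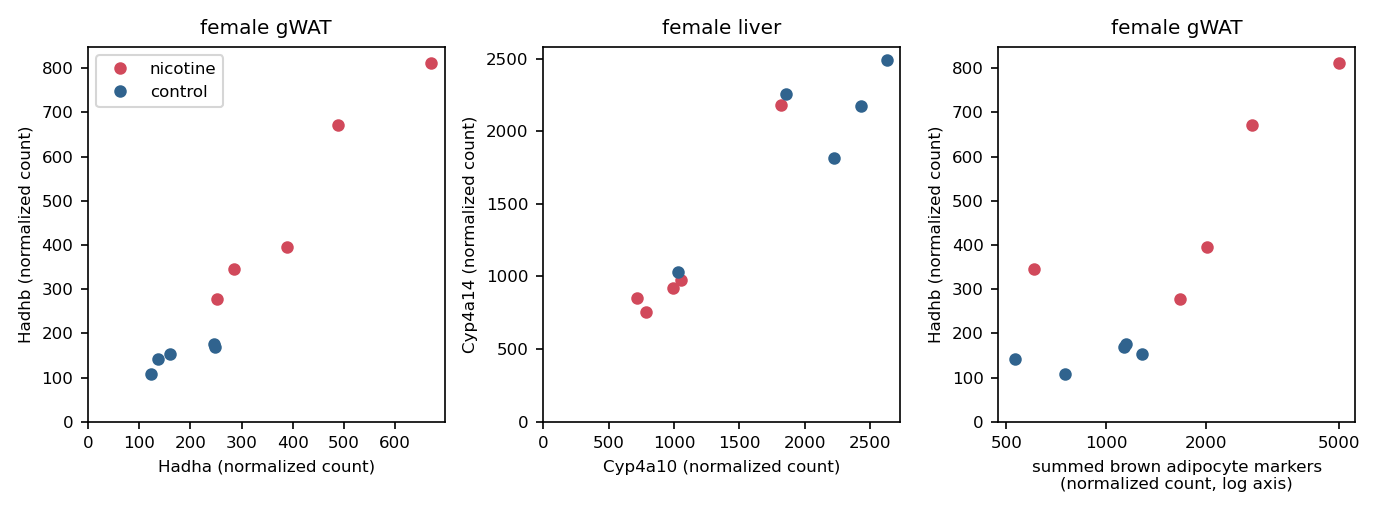
Normalized counts of pairs across libraries, nicotine and control in colour: Hadhb against Hadha in female gWAT, Cyp4a14 against Cyp4a10 in female liver, and Hadhb against the summed brown adipocyte markers in female gWAT (log axis). Hadha rises with Hadhb and Cyp4a10 with Cyp4a14. Nicotine library 4 has a marker sum of 605 and a Hadhb count of 346, and Hadhb was called higher with this library included.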

How the data were processed

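Liver and gWAT RNA was measured by 3′-tag sequencing of polyA RNA, per the labels' protocols. The authors trimmed reads with cutadapt, aligned them with STAR to mm10 and normalized them with DESeq2, per the submitters' processing notes, which give no versions. The deposited values are a signal, the read count of a gene divided by a size factor per library, in 1 table for each sex and tissue. Whole reads were recovered from 100% of the values (tolerance 0.1 reads). The authors' deposited table also holds log2 fold changes and p-values.

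From these values log2(normalized count + 1) was tested with limma 3.58.1 (trend, R 4.3.3) within each table, keeping genes whose mean over the table reached 10 normalized counts, and p-values were adjusted by Benjamini and Hochberg's method (threshold 0.05). A fit over both sexes of a tissue tested the interaction. edgeR 4.0.16 and DESeq2 1.42.0 on the recovered reads, other pseudocounts, filters and scalings, and leaving out libraries were alternatives. The fits within each table were tested on simulated data. Named were members called in a comparison, up to 5 of smallest p, 10 set members, up to 3 of smallest interaction p, and up to 3 called genes per list, some of which are not reported here. Other genes named were chosen after their values were seen. The members and lists were chosen with earlier results of these data known. Levels in CPM were computed from the recovered reads. Correlations used 100000 resamples. Promoter sequences and coordinates are from RefSeq (GRCm38.p6), and shared transcript ends were counted in 50-base stretches of the last 500 bases.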

Additional observations from a re-analysis of the deposited data

Results flagged for a closer look

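In female liver, Cyp4a14 in nicotine library 1 was 2178 normalized counts, above the 757 to 974 of the other nicotine libraries. Acadm in the same library was 900.3 normalized counts, above 708 to 739.6 in the other 4. In male gWAT, Cyp4a14 in nicotine library 1 was 88.2 normalized counts, above 0 to 3.87 in the other 4. In female gWAT, Bdh1 in control library 2 was 92.5 normalized counts, above 8.73 to 14.9 in the other controls. Pdk4 in that library was 18.3 normalized counts, above 0.980 to 5.50 in the other controls, and the library also held skeletal muscle transcripts, whose part was not tested. In male liver, Cpt2 in control library 2 was 236 normalized counts, above 177 to 187 in the other controls. These 6 of 104 groups had a library far from the others, and chance gives about 1 in 20.

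In gWAT the change in daughters minus that in sons passed the interaction test for Hadhb (1.57 on the log2 scale), Eci1 (1.21), Hadh (1.10) and Etfa (1.02).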

How the results depend on the processing

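For members picked by the naming rules above, 1266 changes were recomputed under an alternative. Of these, 1165 kept their direction and side of the threshold, 57 lost the call, 18 gained it and 26 changed sign. Other members are not in these counts, and some gained a call, as Acot2 did in female gWAT with DESeq2 and edgeR. In female gWAT 11 members were called with brown adipocyte markers as a covariate, and 14 to 21 members and 1954 to 2768 genes without 1 library. In female liver DESeq2 called 1 member, no filter 4, and leaving out the muscle libraries 1 (and 181 genes), with 1 to 4 members and 185 to 329 genes without 1 library. In male liver DESeq2 called 186 genes and 2 members, edgeR 3 genes, a mean of 50 or more 0 genes, and leaving out the pancreas and muscle libraries 54 genes, with 0 to 16 genes and 0 members without 1 library. The gWAT interaction called 7 members with edgeR (and 910 of 10042 genes), 13 with library weights (1275 of 10042) and 9 with a mean of 50 or more (760 of 4567), with 2 to 10 members and 448 to 1122 genes without 1 library. The liver interaction called 71 to 280 genes and 0 members, and male gWAT 0 genes and 0 members, without 1 library. The cause was not tested.

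The labels do not say that replicate numbers pair the samples. Same-numbered correlations of deviations ran from -0.28 to 0.17, which cannot show whether the numbers stand for pairs. With the replicate block 15 members were called in female gWAT (and 2011 of 10532 genes), 4 in female liver (341 of 9173) and 0 genes in male liver, and 1, 1 and 0 libraries in those tables correlated best with their own number. The block was not fitted in male gWAT, where the numbers of the 4 control columns are not tied to single samples among the 5 labelled.

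Sign changes were in members that did not pass. In female gWAT Bdh1 gave -0.13 with the brown adipocyte covariate, -0.084 with total read scaling, and -0.21 to 0.81 without 1 library (also -0.12, -0.0032 and -0.000041). In female liver Ehhadh gave -0.18 to 0.20 (also 0.0052, 0.013 and 0.069) without 1 library. In male gWAT Acadm gave -0.16 to 0.030 (also 0.0027) without 1 library, Hadha -0.026 with library weights and -0.070 to 0.20 without 1 library, and Cyp4a14 1.63 with edgeR, 0.10 with pseudocount 5 and -0.57 to 0.26 without 1 library. Bdh1 there gave 0.16 with DESeq2 and with edgeR, 0.42 with library weights, 0.012 with pseudocount 5 and -0.51 to 0.45 (also 0.16, 0.24 and 0.43) without 1 library. In male liver Cyp4a14 gave -0.21 without nicotine libraries 1 and 5. Without the 2 libraries farthest from the median, r was -0.44 for Cyp4a10 and Cyp4a14, -0.10 for Cyp4a14 and Cpt1a and 0.36 for Acadm and Acadl in male liver, and 0.34 for Cyp4a14 and Vnn1 and -0.15 for Hadha and Hadhb in male gWAT.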

Other observations

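Other pathway lists were counted beside the oxidation genes. In female gWAT 4 of 15 peroxisome biogenesis genes tested rose, 3 fell and 8 did not pass. Of all tested genes there 12.4% were called higher and 12.8% lower. Pex3, which brings membrane proteins into peroxisomes, averaged 208 ± 47.3 normalized counts in the nicotine group and 119 ± 17.9 in controls (log2 change 0.79, SE 0.18, adjusted p = 0.00617). Of 9 genes of the pyruvate dehydrogenase list 4 rose and 0 fell, among them the phosphatase Pdp2 (1.79-fold, log2 change 0.87, SE 0.20, adjusted p = 0.00655) and the subunits Dlat and Pdha1 (2.00-fold and 1.88-fold, limma adjusted p = 0.0227 and 0.0237).

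Of 29 other PPARα targets tested in female gWAT 5 rose and 1 fell, where 25.2% of all tested genes were called, 12.4% higher and 12.8% lower. The monoglyceride lipase Mgll and the lipid droplet protein Plin5 rose 2.49-fold and 4.34-fold (limma adjusted p = 0.0019 and 0.00431), and the uncoupling protein Ucp2 fell (log2 change -1.23, SE 0.42, adjusted p = 0.044). In female liver 2 of 22 rose and 3 fell, where 3.28% of all tested genes were called. Plin5 fell there and averaged 48.4 ± 6.62 normalized counts in the nicotine group and 79.7 ± 18.2 in controls (log2 change -0.69, SE 0.15, adjusted p = 0.0151), so its change had opposite signs in the 2 tissues, a difference that was not tested. Plin2, the lipid droplet coat protein, and G0s2, which restrains fat breakdown, fell (0.663-fold and 0.244-fold of the control mean, limma adjusted p = 0.00475 and 1.26e-07), and Angptl4, an inhibitor of lipoprotein lipase, rose 1.98-fold (limma adjusted p = 2.53e-05).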
